A study of Mus musculus with 12 samples.

Results

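The 44 genes described here encode the subunits of the mouse SWI/SNF chromatin remodelling complexes and the ATPases of the other remodelling families. They were taken by symbol, through the GENCODE M21 annotation, from a table of 23438 genes measured by RNA-seq in bone marrow derived macrophages (BMDM), which are macrophages grown from bone marrow cells in culture. All 44 were listed, 29 of them SWI/SNF subunits and 15 ATPases outside SWI/SNF. A total of 41 reached 1 TPM (a level per transcript length, scaled to a fixed total per library) in at least 5 of the 12 libraries and were tested, among 11152 such genes. Dpf3, Actl6b and Smarca1 did not reach that level. The series compares 7 WT libraries with 5 libraries of Baf60a KO, a knockout of the SWI/SNF subunit gene Smarcd1, whose protein is also called BAF60a. Both groups were primary cells at day 7 of BMDM differentiation, and the series describes the source as atherosclerotic C57 mice. The labels used here name no promoter, Cre driver or deleted exon for the knockout, and no age, diet or further allele. No label says that the libraries of a group stem from separate mice, and the p-values given here therefore measure only how these libraries vary.

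SWI/SNF complexes use the energy of ATP to slide or eject nucleosomes and so open DNA to transcription factors. Each complex holds 1 of the ATPases Smarca4 (BRG1) and Smarca2 (BRM) on a core that the complexes share only in part. Further subunits add the identity of canonical BAF (Arid1a or Arid1b with a Dpf protein) or PBAF (Arid2, Pbrm1, Brd7 and Phf10). Others add that of the non-canonical BAF complex, ncBAF (Brd9 with Bicra or Bicral). Many positions in the complex are filled by 1 of several paralogues, among them the BAF60 position that Smarcd1, Smarcd2 or Smarcd3 can take. In macrophages, SWI/SNF is known for its part in opening the enhancers and promoters of inflammatory genes. The ISWI, CHD and INO80-type ATPases run separate remodelling complexes that space nucleosomes, exchange histone variants or join remodelling to histone deacetylation.

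The 12 libraries did not form 2 even groups, and this touches every comparison below. WT replicates 2, 3 and 4 correlated with each other at Pearson's r of 0.969 to 0.991 across genes (genes are not independent replicates) but with the other 9 libraries only at 0.833 to 0.928. The summed level of 12 fibroblast and smooth muscle markers was 4020 to 10278 TPM in these 3 libraries, against 114 to 429 TPM in the remaining 4 WT libraries and 193 to 612 TPM in KO. The summed level of 10 neutrophil markers was 79.3 to 109 TPM in them, against 1195 to 1547 TPM in the remaining WT libraries and 1005 to 6263 TPM in KO. The summed level of 10 macrophage markers reached 7690 to 26361 TPM in them, 23994 to 27597 TPM in the remaining WT libraries and 14766 to 15256 TPM in KO. All 10 macrophage markers reached the level for testing. Of these, 5 lay below the remaining 4 WT libraries in WT replicates 2 to 4, 5 overlapped and 0 lay above. Their median log2 difference was -1.02. Over all tested genes, 28.3% lay below and 29.9% above. Much of the sum is the lysozyme gene Lyz2, at 16587, 21547 and 5232 TPM in WT replicates 2, 3 and 4. The difference between genotypes in the sum also rests largely on Lyz2, at 4932 to 5853 TPM in KO and 14635 to 16912 TPM in the remaining WT libraries. Summed B cell, T cell and dendritic cell markers stayed at or under 30.3, 5.21 and 2.31 TPM in every library. In such bulk RNA, fewer cells of a type and less RNA per cell cannot be told apart. The comparison of genotypes is therefore given with all 12 libraries and with the 9 libraries that remain without WT replicates 2 to 4. These 9 are called the 9 libraries, and WT replicates 1, 5, 6 and 7 are called the remaining 4 WT libraries.

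Most members were moderately expressed and steady. Over the 9 libraries, 36 of the 44 had a mean of at least 10 TPM. The median level of the 41 tested members was 32.8 TPM, against 20.2 TPM for all tested genes. The coefficient of variation over the same 9 libraries, which mixes both genotypes, had a median of 6.33% for the members and 8.60% for all tested genes. It was under 10% for 32 of the 41 members and for 58.5% of all tested genes. Smarcd1, the knocked-out gene, is among the 9 above that limit, at 39.6%.

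**Figure D1:**
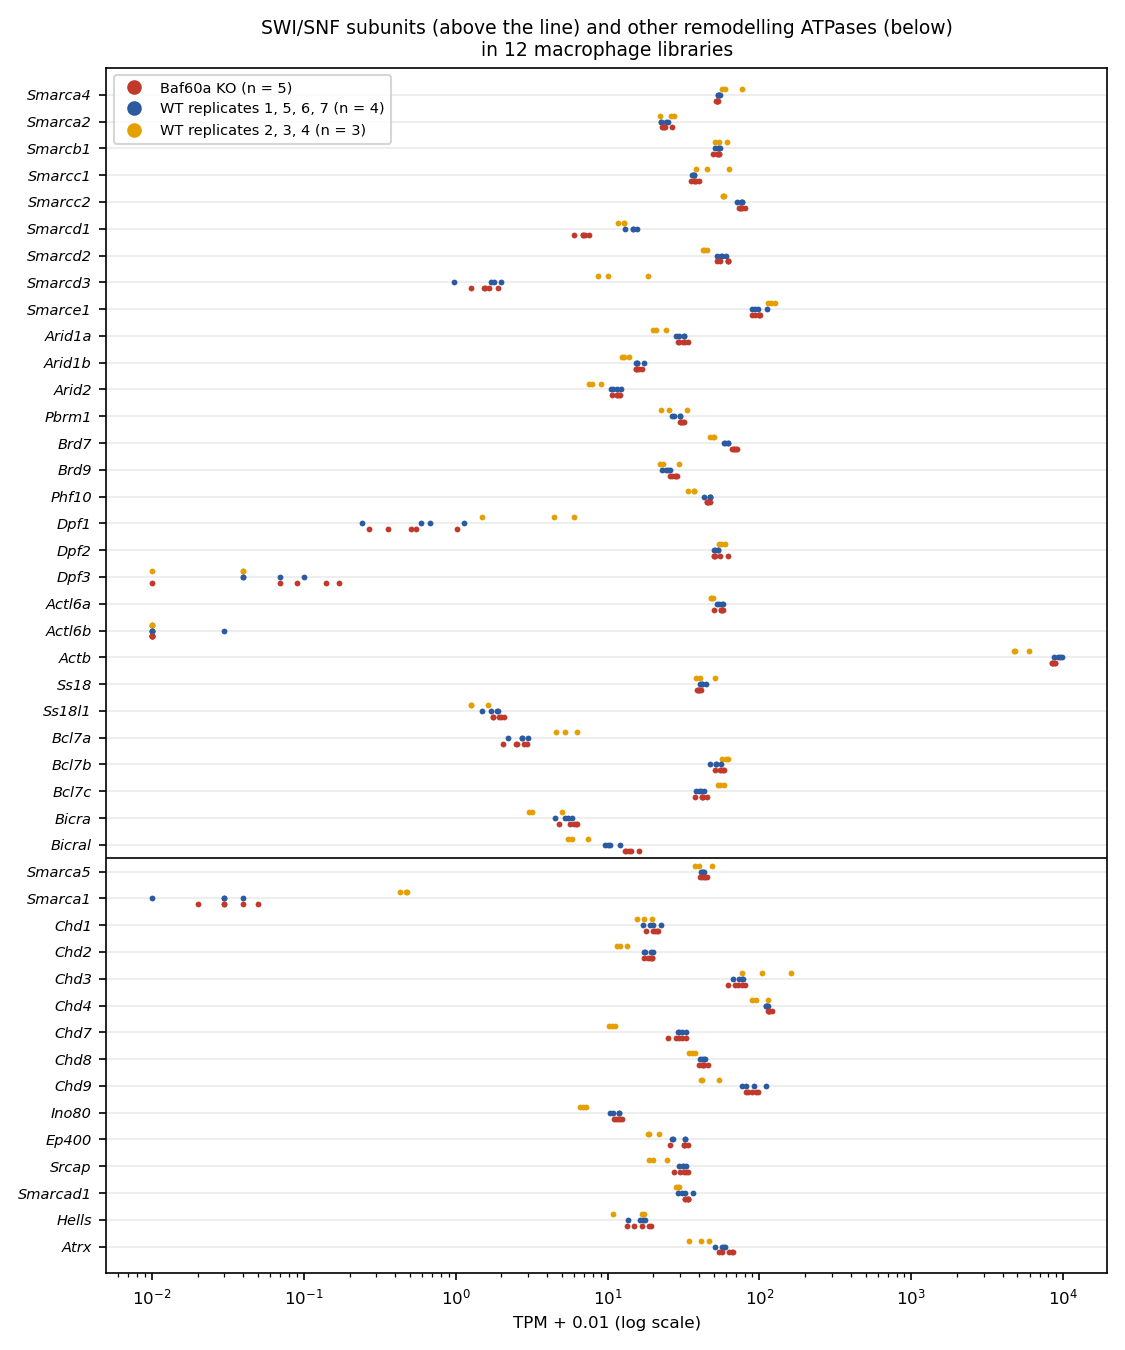
Level of each member in TPM (log scale, with 0.01 added so that zeros can be drawn) in every library. Blue points are the remaining 4 WT libraries, orange points WT replicates 2 to 4 and red points KO; the horizontal line parts SWI/SNF subunits from the other ATPases. Red lies apart from blue for Smarcd1, and orange lies far from the rest for Smarcd3, Smarca1 and Chd7. For Dpf1 it does so in WT replicates 2 and 4, while WT replicate 3 (1.47 TPM) lies near the highest blue point (1.13 TPM).

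Within the SWI/SNF complex, the lead of 1 paralogue over the others varied by position. These levels are per transcript length and can be compared between genes. Of the ATPases, Smarca4 supplied 69.1% ± 1.22 (SD, n = 9) of the summed TPM and Smarca2 the rest. Of the scaffold subunits that hold the core together, Smarcc2 (BAF170) supplied 67.0% ± 0.986 and Smarcc1 (BAF155) the rest. Of the DNA-binding ARID subunits of canonical BAF, Arid1a supplied 65.9% ± 1.10. Among the subunits with paired PHD fingers, which read modified histone tails, Dpf2 supplied 53.0% ± 2.12 and the PBAF subunit Phf10 46.3% ± 2.15. The Dpf family members best known from neurons and muscle were nearly silent, with Dpf1 at 0.586 ± 0.312 TPM and Dpf3 at 0 to 0.16 TPM (SD, n = 9).

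Among the actin-like and accessory subunits, the lead was wide for Actl6a and Ss18 and narrow for Bcl7b. Actl6a (BAF53a) lay between 47.7 and 57.5 TPM in the 12 libraries, while its neuronal counterpart Actl6b was listed at 0 in 11 libraries and at 0.02 TPM in WT replicate 1. Ss18 supplied 95.7% ± 0.461 of the TPM it shares with Ss18l1 (CREST). Of the Bcl7 proteins, Bcl7b supplied 55.0% ± 2.17, Bcl7c 42.4% ± 2.05 and Bcl7a 2.66% ± 0.312. Actb, the cytoskeletal beta-actin that is also a subunit of the ATPase module, stood at 8415 to 9748 TPM in the 9 libraries. Of the ncBAF scaffold proteins, Bicral supplied 69% ± 3.45 and Bicra (GLTSCR1) the rest. All these errors are SDs over the 9 libraries.

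The balance of subunits was then set against the ATPases, summed over paralogues. The Smarca4 and Smarca2 total was 76.1 to 80.5 TPM in the remaining 4 WT libraries. For each TPM of ATPase there, the Smarcd genes together gave 0.863 to 0.994 TPM, Smarcb1 (SNF5) 0.653 to 0.724, the Actl6 genes 0.657 to 0.737, the Smarcc genes 1.38 to 1.49 and Smarce1 (BAF57) 1.18 to 1.47. Several subunits that define complexes were less abundant: the Arid1 genes gave 0.564 to 0.646, Pbrm1 0.347 to 0.395, Arid2 0.139 to 0.160, Brd9 0.298 to 0.331 and the Bicra pair 0.191 to 0.235. Brd7, at 0.737 to 0.819, was the PBAF subunit with the highest ratio. These are ratios of transcripts and give no protein stoichiometry.

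The targeted gene, Smarcd1 (ENSMUSG00000023018, chr15:99702129-99713991 on the plus strand in GRCm38), was reduced but not lost in KO. Its levels in KO replicates 1 to 5 were 5.99, 6.90, 6.92, 7.58 and 7.12 TPM. In WT replicates 1 to 7 they were 15.6, 11.6, 12.9, 12.9, 12.9, 14.7 and 14.7 TPM. Every KO library lay below every WT library. The KO mean was 6.90 ± 0.579 TPM (SD, n = 5) and the WT mean 13.6 ± 1.40 TPM (SD, n = 7). In limma, Smarcd1 fell by 0.88 ± 0.0801 (SE) on the log2(TPM + 1) scale with all 12 libraries, at an adjusted p of 7.4e-04. It fell by 0.97 ± 0.0728 with the 9 libraries, at an adjusted p of 8.3e-04. The level is a sum over transcripts, so it does not show whether the remaining RNA holds the deleted part. Of all the 51-base words in the Smarcd1 transcripts, 7.8% also occur in the overlapping genes Gm17349 and Gm34939, so a part of its reads could be assigned to either.

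Smarcd2, the most abundant paralogue, did not pass the threshold. Its levels were 61.7, 54.6, 62.3, 62.3 and 52.8 TPM in KO replicates 1 to 5, and 56.6, 52.4, 60.3 and 55.8 TPM in WT replicates 1, 5, 6 and 7. The genotypes overlapped there. The log2 difference with the 9 libraries was 0.06 ± 0.0634 (SE), with a 95% interval of -0.08 to 0.20 and a limma adjusted p of 0.675. With 12 libraries it was 0.22 ± 0.0996 (adjusted p of 0.286), and WT replicates 2 to 4 stood lowest, at 42.8, 45.0 and 42.2 TPM.

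Smarcd3 (BAF60c), best known from heart and skeletal muscle, was low in both genotypes apart from the libraries that stand apart. KO replicates 1 to 5 held 1.26, 1.56, 1.52, 1.89 and 1.65 TPM, and WT replicates 1, 5, 6 and 7 held 1.78, 1.97, 0.97 and 1.70 TPM. WT replicates 2, 3 and 4 held 10.1, 8.65 and 18.6 TPM. The log2 difference between genotypes was 0.00 ± 0.131 (SE, 95% interval -0.30 to 0.29) with the 9 libraries, a limma adjusted p of 0.993. With 12 libraries it was -1.0 ± 0.541, at an adjusted p of 0.32. Of its 51-base words, 43.9% are shared with the overlapping gene Chpf2, which lay at 76.1 to 83.2 TPM in WT replicates 2 to 4, 54.4 to 68.9 TPM in the remaining WT libraries and 62.0 to 69.7 TPM in KO, so the split of reads between the 2 genes is uncertain.

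The make-up of the BAF60 transcripts therefore differed between genotypes. Smarcd1 supplied 8.69% to 11.6% of the summed Smarcd TPM in KO, with a mean of 10.3% ± 1.11 (SD, n = 5), and 17.5% to 21.1% in WT, with a mean of 19.3% ± 1.23 (SD, n = 7). The share was lower in all 5 KO libraries than in all 7 WT libraries. The exact two-sided permutation test gave p = 0.00126, the smallest that 792 regroupings allow, and 0.0177 after adjustment over 14 paralogue families. The knockout targets Smarcd1 itself, so this share is not evidence separate from the fall in its level. With the 9 libraries the exact permutation p was 0.00794, again the smallest possible, and 0.111 after adjustment, so that with 14 families this smaller set left no room for 1 family alone to pass. Smarcd2 supplied 85.8% to 89.5% in KO, 76.5% to 79.4% in the remaining 4 WT libraries and 57.3% to 67.6% in WT replicates 2 to 4. Smarcd3 supplied 1.83% to 2.68%, 1.28% to 2.93% and 13.0% to 25.2% in the same order. The summed Smarcd level was 61.6 to 71.7 TPM in KO and 67.3 to 75.9 TPM in the remaining 4 WT libraries, with overlapping ranges. Since shares within a library add up to a fixed total, a smaller Smarcd1 share raises the others even where their levels do not change.

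**Figure D2:**
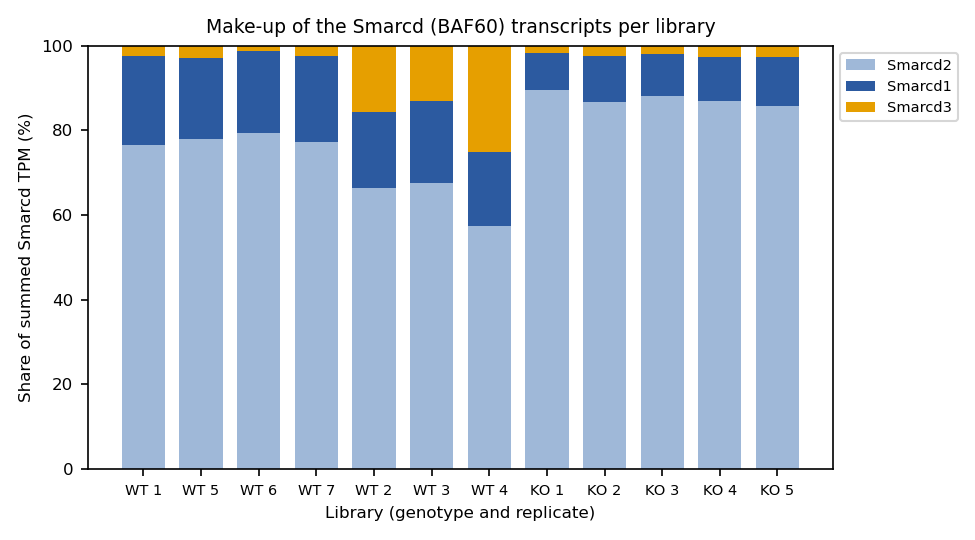
Share of the summed TPM of Smarcd1, Smarcd2 and Smarcd3 (percent) in each library, drawn as stacked bars. The Smarcd1 band is narrower in all 5 KO bars (8.69% to 11.6%) than in all 7 WT bars (17.5% to 21.1%), and the Smarcd3 band is wide only in WT replicates 2, 3 and 4 (13.0% to 25.2%).

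A promoter window of each of the 3 paralogues is printed because these genes fill the same position in the complex at very different levels. Each line is the 250 bases before the start in the RefSeq window of GRCm38.p6, 5′ to 3′ on the gene's own strand. The windows lie at chr15:99702037-99702286 (plus strand) for Smarcd1, chr11:106267633-106267882 (minus strand) for Smarcd2 and chr5:24602003-24602252 (minus strand) for Smarcd3. The Smarcd2 and Smarcd3 windows belong to starts inside the genes as GENCODE M21 gives them, since its gene models begin farther upstream, at 106272972 on chromosome 11 and 24624411 on chromosome 5. The Smarcd1 window also reaches into its gene model, which begins at 99702129 on chromosome 15. The TPM values are sums over all starts of a gene, and the windows are therefore not set against them. Capitals mark matches on either strand to the GC box GGGCGG, the usual letters of an Sp1 site, and to the TATA box with the letters TATAAA.
Smarcd1: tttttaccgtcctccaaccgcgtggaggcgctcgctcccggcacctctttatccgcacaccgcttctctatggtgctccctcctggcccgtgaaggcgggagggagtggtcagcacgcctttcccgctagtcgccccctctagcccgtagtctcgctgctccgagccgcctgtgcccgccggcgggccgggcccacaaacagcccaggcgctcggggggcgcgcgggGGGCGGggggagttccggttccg
Smarcd2: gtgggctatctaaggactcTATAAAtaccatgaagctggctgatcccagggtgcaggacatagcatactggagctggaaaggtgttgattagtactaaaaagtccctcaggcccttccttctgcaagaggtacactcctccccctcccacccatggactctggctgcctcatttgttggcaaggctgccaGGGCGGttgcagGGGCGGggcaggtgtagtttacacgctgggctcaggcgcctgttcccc
Smarcd3: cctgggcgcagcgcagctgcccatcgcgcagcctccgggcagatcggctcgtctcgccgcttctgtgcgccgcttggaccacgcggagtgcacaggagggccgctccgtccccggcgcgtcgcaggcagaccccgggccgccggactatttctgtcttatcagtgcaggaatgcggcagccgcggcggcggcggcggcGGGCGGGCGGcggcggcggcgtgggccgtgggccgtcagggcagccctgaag
The Smarcd1 and Smarcd3 windows are rich in GC (71.2% and 76%) and hold 29 and 38 CpG dinucleotides, with 1 and 2 GC boxes; those of Smarcd3 overlap. The Smarcd2 window has 56.4% GC, 4 CpG dinucleotides, 2 GC boxes and 1 match to the letters TATAAA. That match lies near the upstream end of the window, far from the start.

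Few other members were called. With all 12 libraries, 1 of the 41 tested members was called by limma, Smarcd1 itself, where 0.126% of all 11152 genes were called in either direction. With the 9 libraries, 1 member fell, where 0.717% of all genes did, and 2 rose, where 1.61% of all genes did. The risers were Bicral and Brd7. Among the members, 6 had an unadjusted p under 0.05 with the 9 libraries and 5 with all 12, against 18.9% and 17.5% of all tested genes.

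Bicral, the more abundant of the paralogues that scaffold ncBAF, lay at 16.2, 14.2, 13.0, 13.1 and 13.9 TPM in KO replicates 1 to 5. In WT replicates 1, 5, 6 and 7 it lay at 10.1, 10.4, 12.1 and 9.63 TPM, and in WT replicates 2, 3 and 4 at 5.83, 5.51 and 7.45 TPM. All KO libraries stood above all WT libraries. It rose by 0.39 ± 0.0794 (SE) on the log2(TPM + 1) scale with the 9 libraries, at a limma adjusted p of 0.0407. With all 12 libraries the difference was 0.67 ± 0.172 and the adjusted p 0.160. The call was lost in 11 of 17 alternatives with the 9 libraries, median-ratio scaling and the omission of single libraries among them, and its difference ranged from 0.30 to 0.51. Of its 51-base words, 10.6% occur in the overlapping gene Gm26904.

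Brd7, the bromodomain subunit of PBAF, lay at 71.2, 65.7, 70.2, 68.0 and 67.6 TPM in KO replicates 1 to 5. In WT replicates 1, 5, 6 and 7 it lay at 59.3, 61.7, 58.7 and 62.4 TPM, and in WT replicates 2, 3 and 4 at 47.2, 50.2 and 49.4 TPM. The genotypes did not overlap. It rose by 0.18 ± 0.0358 (SE) with the 9 libraries, at a limma adjusted p of 0.0387, and its difference with all 12 was 0.31 ± 0.0774, at an adjusted p of 0.160. The call with the 9 libraries was lost in 12 of 17 alternatives, with differences of 0.13 to 0.20. No 51-base word of Brd7 occurs in another gene.

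Brd9, the bromodomain subunit of ncBAF and a paralogue of Brd7, lay at 28.1, 26.6, 28.8, 27.8 and 25.9 TPM in KO, while WT replicates 1, 5, 6 and 7 had 25.7, 24.1, 22.8 and 25.2 TPM. These values did not overlap, but the log2 difference of 0.16 ± 0.0483 (SE) missed the threshold at a limma adjusted p of 0.111. WT replicates 2, 3 and 4, at 23.1, 22.2 and 29.4 TPM, spanned both ranges. Bicra lay at 4.80 to 6.28 TPM in KO and 4.51 to 5.85 TPM in the remaining 4 WT libraries, with an adjusted p of 0.540. The sum of Brd9, Bicra and Bicral was 45.4 to 50.3 TPM in KO, 39 to 41.3 TPM in the remaining 4 WT libraries and 30.9 to 41.8 TPM in WT replicates 2 to 4. The sum of the PBAF subunits Arid2, Pbrm1, Brd7 and Phf10 was 154 to 159 TPM in KO, 144 to 148 TPM in the remaining 4 WT libraries and 114 to 129 TPM in WT replicates 2 to 4. Each sum includes a gene already called, and neither was tested.

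Other measures moved with genotype in the same 9 libraries. The DNA clamp gene Pcna rose by 0.43 (limma adjusted p of 0.00454), the lipopolysaccharide co-receptor gene Cd14 rose by 0.51 (adjusted p of 0.0458), and Lyz2 fell by 1.55 (adjusted p of 5.7e-06). The summed level of 14 proliferation markers was 1537 to 1930 TPM in KO and 1416 to 1541 TPM in the remaining 4 WT libraries, and Pcna was the 1 marker of the list that was called. The part of these differences in the values of Bicral, Brd7 and Smarcd1 was not tested.

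**Figure D3:**
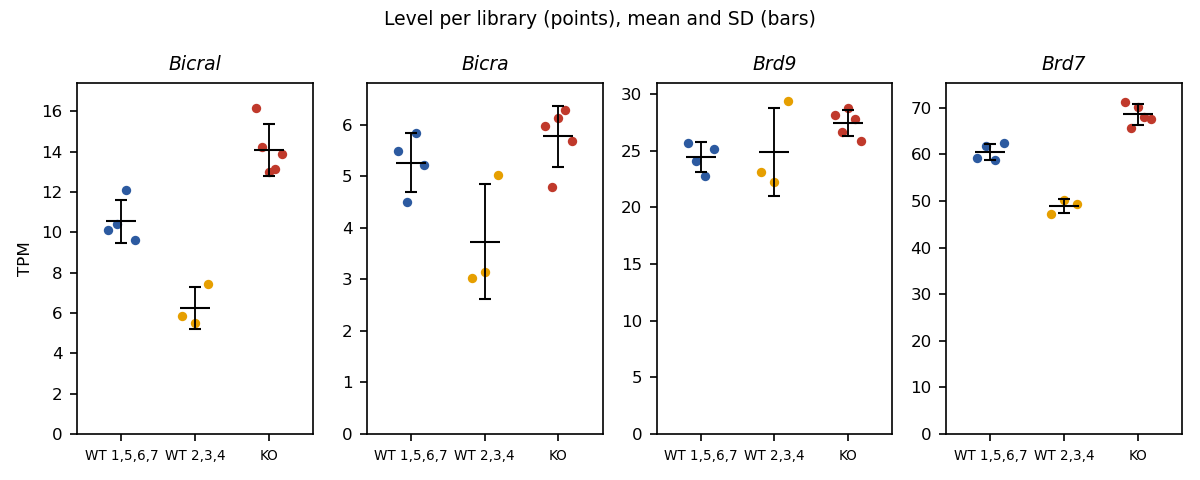
Level of Bicral, Bicra, Brd9 and Brd7 in TPM for each library (points), with the group mean and SD (bars), in the remaining 4 WT libraries, WT replicates 2 to 4 and KO. KO points lie above both WT groups for Bicral and Brd7, above the remaining 4 WT libraries for Brd9, and overlap them for Bicra.

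The remaining members did not pass the threshold. The 38 members not called with the 9 libraries had log2 differences of -0.11 to 0.16 and limma adjusted p-values of 0.111 to 0.998. The median difference over the 41 members was 0.02 (0.05 over all tested genes), and the median absolute difference was 0.04 (0.08 over all tested genes). With all 12 libraries the 40 uncalled members ranged from -1.0 to 0.67, with adjusted p-values of 0.160 to 0.985. The median absolute difference then was 0.17 for the members and 0.16 for all tested genes.

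The ATPase Smarca4 lay at 52.5, 52.8, 52.5, 53.5 and 51.6 TPM in KO, while WT replicates 1, 5, 6 and 7 had 55.3, 53.7, 53.9 and 53.6 TPM. The ranges did not overlap but lay side by side, and the log2 difference of -0.04 ± 0.0284 (SE, 95% interval -0.10 to 0.02) gave a limma adjusted p of 0.483. Smarca2 had a difference of 0.02 (adjusted p of 0.881). In the core, Smarcb1, Smarcc1, Smarcc2 and Smarce1 differed by -0.02, 0.04, 0.02 and -0.02, with adjusted p-values of 0.628 to 0.873. Of the ARID subunits, Arid1a, Arid1b and Arid2 differed by 0.03, 0.00 and 0.02. Pbrm1, the polybromo subunit of PBAF, lay at 30.1 to 31.7 TPM in KO and 26.4 to 30.1 TPM in the remaining 4 WT libraries, a difference of 0.12 (adjusted p of 0.219). Actb differed by -0.11 with the 9 libraries (adjusted p of 0.214) and by 0.26 with all 12 (adjusted p of 0.426), so that its direction depends on WT replicates 2 to 4.

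**Figure D4:**
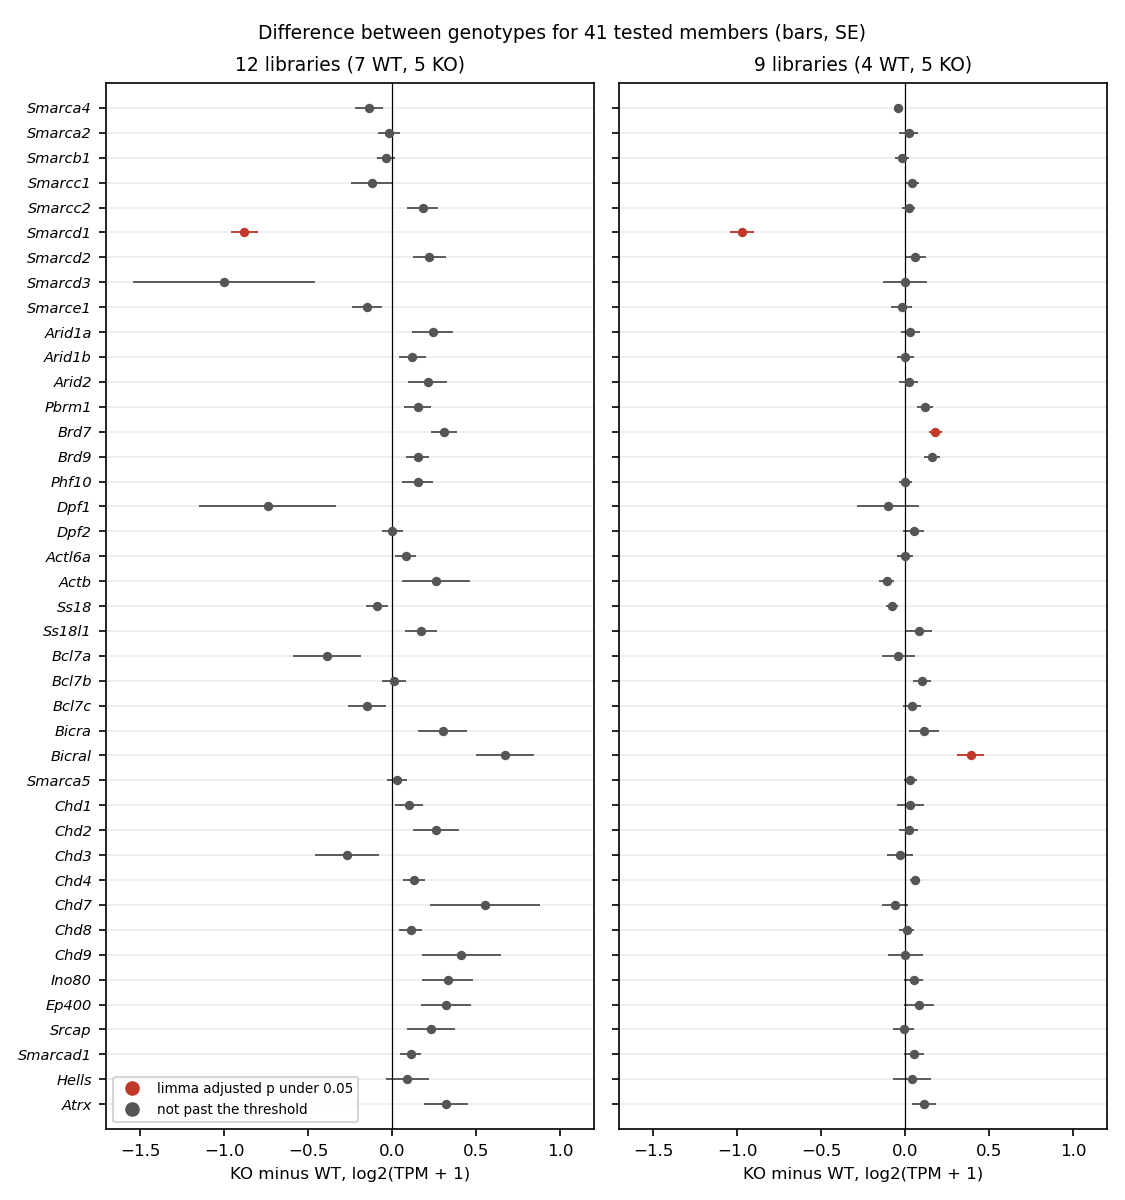
Difference between KO and WT in mean log2(TPM + 1) for the 41 tested members (points, with SE as bars), with all 12 libraries on the left and with the 9 libraries on the right. Red marks a limma adjusted p under 0.05: Smarcd1 in both panels, and Brd7 and Bicral on the right. The bars are wider on the left, where WT replicates 2 to 4 enter.

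Paralogue balance other than that of the Smarcd genes was not called. With all 12 libraries, 3 of the 14 families had an unadjusted exact permutation p under 0.05. Besides Smarcd these were Ss18 (95.5% ± 0.369 of its pair in KO, 96.4% ± 0.522 in WT, p = 0.0101) and Bicra (29.1% ± 3.12 in KO, 34.9% ± 3.13 in WT, p = 0.0114), where the exact permutation p adjusted over the families was 0.0530 for each (SD, n = 5 and n = 7). With the 9 libraries, 2 of the 14 had an unadjusted exact permutation p under 0.05 and none passed the adjustment. The exact permutation p cannot go below 0.00794 there, which leaves no room for 1 family alone to pass. The lack of calls is therefore no evidence of an unchanged balance. Smarca4 supplied 68.7% ± 1.31 of its pair in KO and 69.6% ± 1.01 in the remaining 4 WT libraries, and Smarcc1 supplied 33.2% ± 1.11 and 32.8% ± 0.910. Brd7 supplied 71.4% ± 0.597 of its pair with Brd9 in KO and 71.2% ± 1.05 in the remaining 4 WT libraries, shares that lay within 1 SD of each other although Brd7 alone was called.

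None of the 14 tested ATPases outside SWI/SNF was called by limma with either set of libraries, and 1 with 12 and 0 with the 9 libraries had an unadjusted p under 0.05, against 17.5% and 18.9% of all tested genes. Chd4 and Chd3, the alternative ATPases of the NuRD deacetylase complex, lay at 113 to 121 TPM and 62.1 to 80.9 TPM in KO, and at 110 to 113 TPM and 66.8 to 77.6 TPM in the remaining 4 WT libraries. Chd4 supplied 61.7% ± 2.33 of their sum in KO (SD, n = 5) and 60.2% ± 1.87 in the remaining 4 WT libraries (SD, n = 4). Of the CHD proteins related to Chd7, Chd9 was the most abundant, at 81.9 to 98.3 TPM in KO and 77.1 to 111 TPM in the remaining 4 WT libraries. Chd8 lay at 40.3 to 45.9 TPM and 40.5 to 43.8 TPM in the same groups. Chd1 and Chd2, which act at transcribed genes, lay between 17.2 and 22.5 TPM in the 9 libraries. They were close to equal, with Chd1 at 51.5% ± 2.40 of their sum (SD, n = 9). Of the 51-base words, 18% of those of Chd2 and 0% of those of Chd1 occur in other genes, so this balance is uncertain. Smarca5 (SNF2H), the ISWI ATPase of dividing cells, lay at 40.5 to 45.2 TPM in KO and 41.2 to 43.2 TPM in the remaining 4 WT libraries. Of the Smarca5 words, 27.9% occur in other genes, pseudogene-like predicted genes foremost.

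The INO80-type ATPases, which exchange or evict the histone variant H2A.Z, were led by Srcap and Ep400. Srcap lay at 27.3 to 33.6 TPM in KO and 29.4 to 33.0 TPM in the remaining 4 WT libraries, although 62.9% of its words are shared with overlapping predicted genes and its level is uncertain. Ep400 lay at 25.9 to 34.1 TPM and 26.6 to 32.4 TPM, and Ino80 at 11 to 12.5 TPM and 10.4 to 11.9 TPM. Atrx, which places histone H3.3 in heterochromatin, had the largest difference of the non-SWI/SNF members with the 9 libraries, 0.11 ± 0.0725 (SE), at a limma adjusted p of 0.433. Its levels were 53.9 to 67.0 TPM in KO and 51.3 to 59.1 TPM in the remaining 4 WT libraries. Hells (LSH), tied to DNA methylation and cell division, lay at 13.4 to 19.2 TPM and 13.5 to 17.5 TPM, and Smarcad1 at 32.2 to 34.1 TPM and 29.2 to 36.3 TPM.

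The largest differences among the members were inside the WT group. WT replicates 2 to 4 all lay above the remaining 4 WT libraries for 9 of the 41 tested members (22%), against 29.9% of all tested genes. They all lay below them for 19 members (46.3%), against 28.3% of all tested genes. The 9 above include Dpf1, which reached the level for testing only because of WT replicates 2 to 4. The values of 13 members overlapped. The median log2 difference was -0.19 over the members and 0.00 over all tested genes. With each library scaled by its median ratio, the counts became 6 above and 21 below. The shares over all tested genes were taken without this scaling, so these 2 counts cannot be set against them. The division of WT libraries was found in these data, so it is described and not tested. The stromal and neutrophil marker sums given above separate the same libraries, and their part in these values was not tested.

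On the log2(TPM + 1) scale, Smarcd3 stood apart most of the 41 tested members, with a mean TPM 7.75 times that of the remaining 4 WT libraries (10.1, 8.65 and 18.6 TPM against 0.97 to 1.97 TPM). Dpf1, a neuronal Dpf paralogue, had 6.0, 1.47 and 4.43 TPM in WT replicates 2, 3 and 4. WT replicates 1, 5, 6 and 7 had 0.67, 0.23, 1.13 and 0.58 TPM, and KO replicates 1 to 5 had 0.26, 0.50, 0.54, 1.01 and 0.35 TPM. Dpf1 reached the level needed for testing only because of WT replicates 2 to 4. Smarca1 (SNF2L), the ISWI ATPase best known from neurons, was low throughout but followed them too, with 0.47, 0.42 and 0.46 TPM there and 0 to 0.04 TPM in each of the other 9 libraries. Bcl7a lay at 5.27, 4.57 and 6.25 TPM against 2.20 to 2.99 TPM in the remaining 4 WT libraries. Smarca1 (25.7 times, from levels near 0), Smarcd3, Dpf1 and Bcl7a, all low in the remaining WT libraries, had the highest ratios of the 44 members in these 3. Not every low member followed: the ratio was 0.796 for Ss18l1 and 0.381 for Dpf3.

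Chd7, a CHD ATPase of enhancers whose human gene is mutated in CHARGE syndrome, was the member farthest below in WT replicates 2 to 4. It lay at 10.7, 10.2 and 11.2 TPM there, at 32.9, 29.1, 30.9 and 29.4 TPM in WT replicates 1, 5, 6 and 7, and at 31.1, 24.9, 28.1, 32.7 and 29.6 TPM in KO replicates 1 to 5. The log2 difference to the remaining 4 WT libraries was -1.43. Its paralogue Chd9 lay at 41.4, 54.4 and 41.8 TPM against 77.1 to 111 TPM, a difference of -0.96, and Chd8 differed by -0.23. Actb lay at 4730, 4819 and 5964 TPM against 8735 to 9748 TPM, a difference of -0.85.

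Of the 14 tested ATPases outside SWI/SNF, 8 lay below the remaining 4 WT libraries, 6 overlapped them and 0 lay above, with a median log2 difference of -0.35. Over all tested genes 28.3% lay below and 29.9% above. Those below were Chd2, Chd7, Chd8, Chd9, Ino80, Ep400, Srcap and Atrx. Of the 27 tested SWI/SNF subunits, 9 lay above, 11 below and 7 overlapped, with a median of -0.08, and the share above is near that of all tested genes. Those above were Smarca4, Smarcc1, Smarce1, Smarcd3, Dpf1, Dpf2, Bcl7a, Bcl7b and Bcl7c. Those below were Smarcc2, Smarcd1, Smarcd2, Arid1a, Arid1b, Arid2, Brd7, Phf10, Actl6a, Actb and Bicral. Chd3 lay at 104, 76.9 and 162 TPM and overlapped the 66.8 to 77.6 TPM of the remaining 4 WT libraries through replicate 3.

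**Figure D5:**
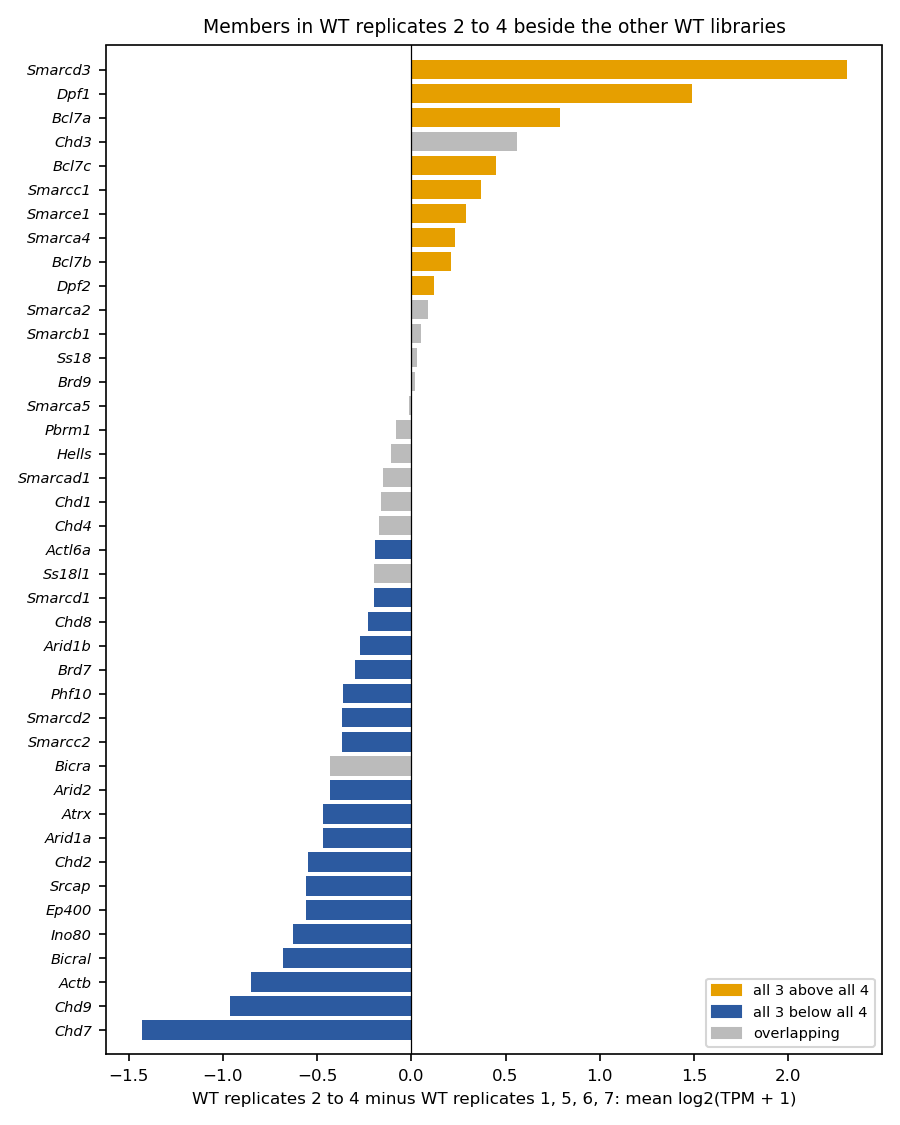
Difference of mean log2(TPM + 1) between WT replicates 2 to 4 and the remaining 4 WT libraries for the 41 tested members, as bars. Orange bars have all 3 libraries above the remaining 4, blue bars all 3 below, and grey bars overlap. Smarcd3 (2.31) and Dpf1 (1.49) extend farthest up and Chd7 (-1.43) farthest down. Dpf1 reached the level for testing only because of WT replicates 2 to 4.

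In 11 of the 14 paralogue families at least 1 gene's share in WT replicates 2 to 4 lay apart from its share in the remaining 4 WT libraries. By level, 29.9% of all tested genes lay above and 28.3% below. Larger families have more chances, and no such count was made for other gene families, so the 11 have no rate beside them. The ISWI pair counts only through Smarca1, at 0.42 to 0.47 TPM in WT replicates 2 to 4. Smarcc1 supplied 39.6% to 52.0% of its pair in WT replicates 2 to 4, against 32.2% to 34.1% in the remaining 4 WT libraries. Chd3 supplied 46.4% to 58.6% of its pair with Chd4, against 37.1% to 41.1%. Phf10 supplied 36.0% to 38.0% of the TPM of its family, against 44.3% to 48.4%. In 3 families every share overlapped: Smarca4 supplied 67.4% to 74.5% against 68.7% to 70.5%, Bicra 34.1% to 40.3% against 30.2% to 35.3%, and the Actl6 pair was Actl6a nearly alone throughout. Within separating families some shares overlapped too, among them Smarcd1 (17.5% to 19.4% against 19.2% to 21.1%), Bcl7c (43.8% to 47.7% against 39.9% to 45.0%) and Chd9 (46.2% to 54.0% against 51.4% to 59.9%). The summed Arid1 genes gave 0.368 to 0.408 TPM for each TPM of ATPase, against 0.564 to 0.646. The PBAF subunits together gave 1.25 to 1.40, against 1.84 to 1.93, and the ncBAF subunits 0.368 to 0.405, against 0.50 to 0.533. In KO these last 2 ratios were 2.0 to 2.11 and 0.602 to 0.659. By these ratios, KO and WT replicates 2 to 4 lay on opposite sides of the remaining 4 WT libraries. The ncBAF sum in TPM did not follow this. In WT replicate 4 it was 41.8 TPM, against 39 to 41.3 TPM in the remaining 4 WT libraries. The ATPase total of that library was 103 TPM. The sums include the called genes Bicral and Brd7, and the ratios were not tested.

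Partner proteins of the remodelling ATPases were examined as lists. In the NuRD list (12 tested genes), the INO80, SRCAP and Tip60 list (28), the ISWI partner list (8), the Polycomb list (27) and the histone chaperone list (15), limma called 0 genes with 12 and 0 with 9 libraries. An unadjusted p under 0.05 was reached by 1, 3, 3, 3 and 2 genes with 12 libraries and by 2, 4, 0, 3 and 2 genes with the 9, in the same order. Over all tested genes that was 17.5% with 12 and 18.9% with the 9 libraries. The median log2 differences with the 9 libraries were 0.04, 0.02, 0.06, 0.03 and 0.07, against 0.05 for all tested genes. The gene nearest the threshold was Ino80c, an INO80 subunit gene, at 15.2 to 17.9 TPM in KO and 13.7 to 14.4 TPM in the remaining 4 WT libraries (log2 difference 0.23, limma adjusted p of 0.0505).

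Positions in WT replicates 2 to 4 were counted for these lists as well, where 29.9% of all tested genes lay above the remaining 4 WT libraries and 28.3% below. NuRD partners lay above them for 7 of 12 and below for 2. The deacetylase gene Hdac2 was at 63.0 to 85.7 TPM against 44.8 to 51.4 TPM, while the methyl-CpG binding gene Mbd2 was at 67.4 to 75.7 TPM against 109 to 120 TPM. ISWI partners lay above for 1 of 8 and below for 5, INO80-type partners above for 4 of 28 and below for 9, histone chaperones above for 5 of 15 and below for 3, and Polycomb genes above for 8 of 27 and below for 8. The Polycomb shares were near those of all tested genes. In the Polycomb list, the methyltransferase gene Ezh2 was at 43.9 to 52.8 TPM against 28.9 to 34.4 TPM, and its cofactor gene Jarid2 at 4.35 to 8.91 TPM against 13.8 to 18.3 TPM. These 4 genes were picked as examples with their values in view.

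Promoters rich in CpG dinucleotides were common among the members, a feature that their choice did not use. RefSeq promoter windows, from 250 bases before to 50 after the start, were at hand for 33 of the 44 members (38 windows). Their median GC content was 66.8%, against 60.7% for windows of tested genes and 52.7% for all windows, and their median number of CpG dinucleotides was 31, against 21 and 7. The GC box GGGCGG, searched on both strands, occurred in the windows of 30 of the 33 members and in 86.8% of their windows, against 63.1% of windows of tested genes and 35.7% of all windows. The members without it were Atrx, Dpf2 and Smarcad1. The letters TATAAA of the TATA box occurred for Smarcd2 alone of the 33 (2.63% of member windows, 6.74% of those of tested genes). They lie in the window inside its gene model, near the upstream end and far from the start. The CCAAT box occurred for 10 members, the ETS core CCGGAAG for 4, the AP-1 site TGACTCA for 2 and the cyclic AMP response element TGACGTCA for 0. In the same order, these were in 28.9%, 13.2%, 5.26% and 0% of member windows, against 37.8%, 18.7%, 3.71% and 3.07% of windows of tested genes. A match is a run of letters in the window and says nothing of binding. No 51-base word was shared between paralogues of 1 family, and any pair of members shared at most 13 such words, so reads of this length can tell the paralogues apart.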

How the data were processed

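Total RNA of BMDM was extracted with an RNeasy kit, made into NEBNext Ultra libraries and sequenced as paired 51-base reads on a NovaSeq instrument, per the labels' protocols. Salmon 1.2.0, bcl2fastq and mm10 are named in the submitters' processing notes. The sources used here do not give the summing of transcripts to genes or the use of strand. The authors deposited 1 table of TPM values, and these sum to 940127 to 947987 per library over the listed genes. TPM keeps no depth, so no counting interval was computed, and a rise of abundant transcripts lowers all other values. No 2 libraries held identical values (0 pairs).

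Symbols came from GENCODE M21 (23423 of 23438 IDs matched). The main test was limma-trend (limma 3.58.1, R 4.3.3) on log2(TPM + 1), with 1 as the pseudocount, and took in 11152 genes (1 TPM or more in 5 or more libraries). P-values were adjusted by Benjamini-Hochberg over all these genes, with 0.05 as the threshold. Differences on this scale understate those of low genes. Shares within 14 paralogue families were compared between genotypes with an exact permutation test of the difference of means, two-sided. All 44 members are named, with values per library for the Smarcd genes, members called in either fit, and members apart in WT replicates 2 to 4 by at least 1 on the log2 scale. The members and gene lists were chosen with earlier results of these data known. Alternatives were pseudocounts of 0.1 and 5, no filter, a mean of at least 5 TPM, median-ratio scaling, sample quality weights, leaving out each library, and a replicate block. Shared 51-base words were counted in the GENCODE transcripts. Both genotypes have replicates numbered 1 to 5, which no label pairs.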

Additional observations from a re-analysis of the deposited data

Results flagged for a closer look

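Of 82 groups of member values (the 41 tested members in WT and in KO), 6 held 1 library far from the rest by Dixon's criterion. Chance alone marks about 1 group in 20 where groups are independent and each comes from 1 population. Here the WT libraries are divided and the members share libraries, so the 6 cannot be set against that rate. In 4 of the 6 groups the library was WT replicate 4. Smarca4, the BRG1 ATPase, stood at 76.93 TPM there against 53.62 to 59.41 TPM in the remaining 6 WT libraries. Smarcb1, a core subunit, stood at 61.36 TPM against 50.8 to 55.09 TPM. Smarcc1, a core scaffold subunit, stood at 62.98 TPM against 36.23 to 45.01 TPM. Chd3, an ATPase of NuRD, stood at 161.79 TPM against 66.76 to 104.17 TPM. WT replicate 4 also held the highest stromal marker sum (10278 TPM) and the lowest macrophage marker sum (7690 TPM) of the 12 libraries. The part of these sums in the 4 values was not tested.

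In KO, Smarca2, the BRM ATPase, stood at 26.54 TPM in replicate 3 against 22.91 to 23.83 TPM in the other 4 libraries. Actl6a stood at 50.2 TPM in KO replicate 5 against 55.99 to 57.48 TPM in the other 4.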

How the results depend on the processing

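With 12 libraries, 14 genes and 1 member were called. The number of genes was 4 (2 higher, 2 lower) with median-ratio scaling, 759 with sample quality weights, 2 to 36 when each library was left out in turn, and 260 without WT replicates 2, 3 and 4. The number of members called was 3 with the weights and 3 without these libraries. With the 9 libraries, 260 genes (180 higher, 80 lower) and 3 members were called. The number of genes was 206 with median-ratio scaling (73 higher, 133 lower), 758 with the weights, and 51 to 462 when each library was left out. The number of members was 1 with median-ratio scaling and 1 to 2 when each library was left out, Smarcd1 being called each time. A paralogue share was called in 1 family. This number was 1 to 2 when each library was left out, 3 (Smarcd, Ss18 and Bicra) as log2 ratios and 0 without WT replicates 2, 3 and 4.

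The replicate block, on 10 libraries, left 0 genes and 0 members called by limma (3706 and 18 at an unadjusted p under 0.05), against 13 genes and 1 member in the same libraries without it. Smarcd1 differed by -0.84 in both, at adjusted p-values of 0.133 and 0.0142. On the 4 libraries of the 9 that share a number it left 0 and 0 (897 and 2 at an unadjusted p under 0.05), as did the fit without the block on those 4 (825 and 3), an alternative added after seeing the data. Smarcd1 differed by -1.01 in both, at adjusted p-values of 0.437 and 0.402. For the paralogue shares the block called 0 families, with an exact permutation p that cannot go below 0.0625. Same-numbered libraries deviated together with r of 0.273, 0.173, 0.114, -0.199 and -0.233, and 2 of the 5 pairs correlated best with their own number, so the libraries share only a number.

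Of the 41 tested members, 9 had a difference of the opposite sign without WT replicates 2, 3 and 4, in 6 of them by at least 0.01 on both sides. Besides Actb and Chd7 these 6 were Srcap (0.23 to -0.01), Smarcc1 (-0.12 to 0.04), Bcl7c (-0.15 to 0.04) and Smarca2 (-0.02 to 0.02). Actb went from 0.26 to -0.08 with sample quality weights and -0.11 without WT replicates 2, 3 and 4, and Chd7 from 0.55 to -0.01 and -0.06. Why WT replicates 2, 3 and 4 differ from the remaining 4 WT libraries was not tested. Without WT replicate 5 the Bicra share was called as well (adjusted exact permutation p of 0.0303), and without WT replicate 7 or KO replicate 1 the Ss18 share. The counts of members apart in WT replicates 2 to 4 stayed within 1.5 times of 28 in all 10 alternatives. That band reaches past the 41 tested members, and leaving out a WT library cannot lower such a count. Staying within it is therefore no evidence of stability. The depth behind a TPM value is unknown, so low members such as Dpf1 and Smarca1 cannot be given a detection limit.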
